A study of Mus musculus with 55 samples.

Results

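The genes described here are 37 genes of the presynaptic vesicle release machinery, chosen by symbol for their known role, without use of measured values, from the 22800 gene symbols of the count table. They comprise 4 SNARE genes, 6 calcium sensors, 3 complexins, 3 genes that recycle SNAREs, 9 genes of vesicle proteins and transmitter transporters, 9 active zone genes and 3 genes of vesicle endocytosis. Their expression was followed in pyramidal neurons from the prefrontal cortex of mice, whose cytosol was drawn into a patch pipette, one neuron per library. The neurons are labelled D1 or D2, after dopamine receptor types. Cells labelled as having no knockout, called wild-type here, gave 15 D1 neurons from animals of 28 to 34 days and 26 D2 neurons from 29 to 35 days. Cells labelled Fmr1-/y, which lack the gene of the fragile X protein, gave 6 D1 neurons, 5 from 32 days and 1 from 31 days, and 7 D2 neurons from 32 days. The sources used here give neither the strain nor the animal of a cell, nor the way in which D1 and D2 neurons were told apart. The labels also carry a side entry that takes 1 value in D1 and another in D2 cells, so cell kind and side cannot be told apart, and age differed with genotype.

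Synaptic vesicles fuse with the plasma membrane when vesicle and membrane SNARE proteins zipper together. Synaptotagmins sense calcium and complexins clamp and promote the fusion step, while the active zone scaffold docks and primes vesicles beside calcium channels. After fusion, the ATPase NSF and its adaptors take SNARE complexes apart and endocytic proteins retrieve the membrane. Pyramidal neurons of the cortex release glutamate, which is loaded into their vesicles mainly by the transporter VGLUT1, the product of Slc17a7. The proteins act at the axon terminal, whereas the pipette samples messenger RNA of the cell body.

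Expression is given as CPM, the gene's reads scaled by the cell's total over genes so that each cell sums to the same value. The 54 cells that passed quality control held between 260943 and 10673072 counts. The number of genes read had a median in D1 cells of 6047 without and 6486.5 with the knockout, and in D2 cells of 4989.5 and 6706. Cells with a read in at least 4000 genes are called gene-rich: 9 of 15 wild-type and 6 of 6 knockout D1 cells, and 13 of 26 wild-type and 6 of 7 knockout D2 cells. The knockout cells were richer in genes, and each comparison is given in all cells and in gene-rich cells. The highest share of mitochondrial reads was 44.8% in wild-type and 3.72% in knockout D1 cells. In D2 cells it was 29.3% and 16.6%, and the part of this share in the results was not tested. Fmr1 was read in 8 of the 15 and 13 of the 26 wild-type cells and in 0 of the 13 knockout cells. Of 8 pyramidal markers, all were read in each group except Emx1, which was at 0 in knockout D2 cells. The summed CPM of 8 interneuron markers had medians of 0.398 and 0 in D1 cells without and with the knockout, and of 9.35 and 44.1 in D2 cells, and the highest sum, 832, was in a wild-type D2 cell. Markers of microglia, which are scavenger cells, summed to medians of 696 and 415 CPM in wild-type and knockout D1 and 553 and 249 CPM in D2 cells. In the same order those of astrocytes summed to 959 and 524 and to 834 and 675 CPM, and those of oligodendrocytes to 338 and 393 and to 583 and 1062 CPM. Their highest sums were 9837, 13004 and 13691 CPM, all in wild-type D1 cells, and their part in the results was not tested.

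Groups were compared by subtracting their means of log2(CPM + 1). Because many cells have no read of a given gene, this difference can exceed the log2 ratio of mean CPM, and both are used: a gene is called higher or lower where the difference is at least 1 and the ratio of mean CPM at least 2-fold in the same direction. A gene counts as measured if its mean is 1 CPM or more and 10% or more of the compared cells have a read. As no animal is named, each group is 1 sample, no p-value was computed, and SDs are over cells. For none of the 37 genes in any of the 4 comparisons (0 of 148) did the cells of the 2 groups fall into ranges that did not overlap. Over all measured genes this was so for 16 of 44063 pairs of gene and comparison, or 0.0363%, so 0 of 148 is near that background.

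Among the SNARE genes, Snap25 and Vamp2 were the most abundant of the 37 per length. Snap25, whose product is the plasma membrane SNARE anchored by palmitoyl groups, had a lowest, median and highest level of 182, 2382 and 5634 CPM in wild-type D1 cells and of 76.3, 2610.2 and 5755 CPM in wild-type D2 cells. In knockout D1 cells these were 756, 2414 and 5717 CPM and in knockout D2 cells 1718, 2527 and 4569 CPM. Snap25 was read in 54 of 54 cells, and the 4 groups covered largely the same range. Its CPM, not scaled by gene length, was the highest of the 37 genes in 46 of the cells. Vamp2, the main vesicle SNARE of the forebrain, had 0.713, 450.0 and 1849 CPM in wild-type and 179, 511 and 994 CPM in knockout D1 cells, and 0, 462 and 3407 CPM in wild-type and 126, 571 and 1237 CPM in knockout D2 cells. Stx1a, a syntaxin of the plasma membrane, had 0, 263 and 909 CPM in wild-type and 10.7, 405 and 723 CPM in knockout D1 cells, and 0, 117 and 993 CPM in wild-type and 49.9, 234 and 2083 CPM in knockout D2 cells. Among wild-type cells 3 of 15 D1 and 7 of 26 D2 cells had no read of it, and each knockout cell had one. The cells without a read were all outside the gene-rich set: Stx1a was read in 34 of 34 gene-rich cells and in 10 of 20 others.

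Levels are otherwise compared between genes only per length, as mean CPM per kilobase of exon over the 54 cells. The length counts every exon base annotated for the gene, over all its transcripts. On this scale Snap25 stood at 397 ± 199 (SD) and Vamp2 at 183 ± 169, followed by Syn1 at 113 ± 150.1, Syt4 at 109.8, Stx1a at 109, Napa at 107 and Syt11 at 107 ± 129.9. From Syn1 to Syt11 the means differ by less than these SDs over cells. At the other end were Unc13b at 3.71, Vamp1 at 2.22, Syn3 at 2.04, Slc17a6 at 0.666 and Cplx3 at 0.111. The dot plot of level per length and share of cells shows the order for all 37 genes.

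**Figure D1:**
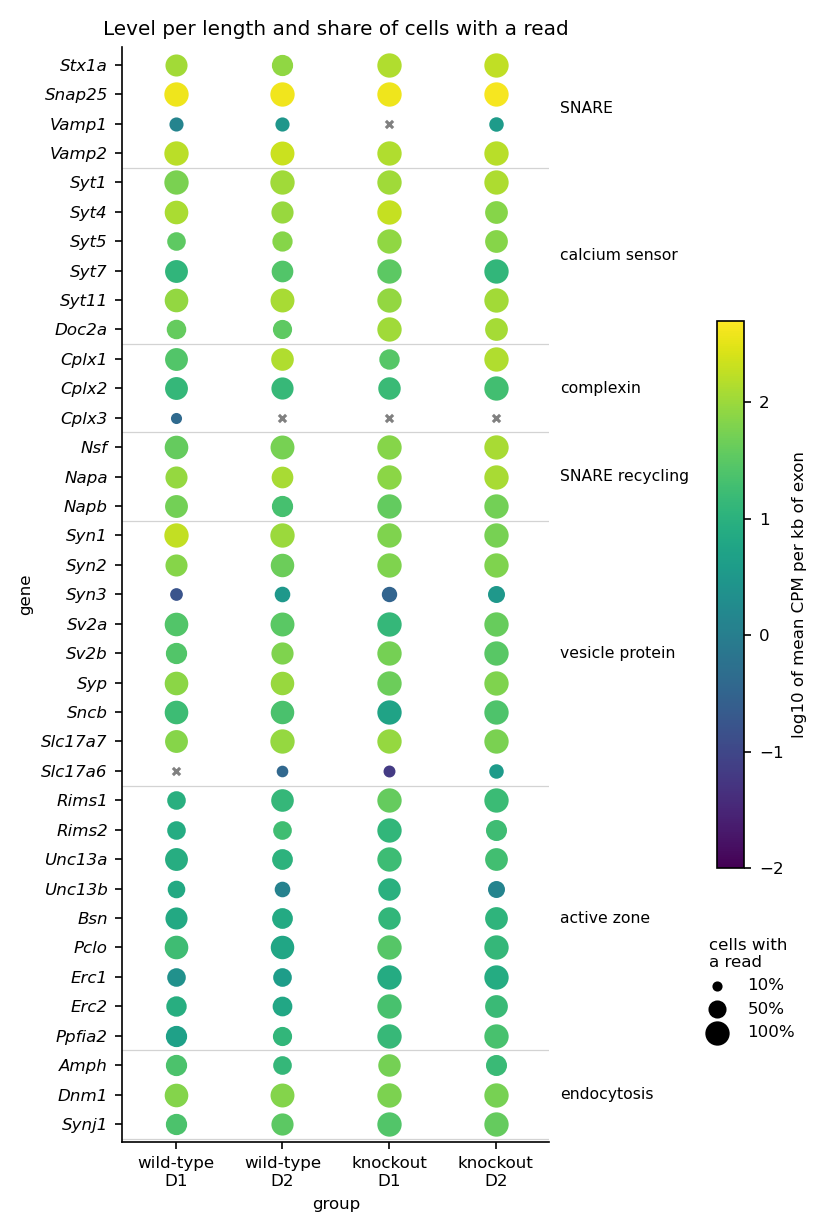
Level of each of the 37 release genes in the 4 groups, by role. Colour gives log10 of the mean CPM per kilobase of exon, dot size the percent of cells with a read, and a grey cross a group with no read, as for Vamp1 in knockout D1 cells.

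Paralogs were used unevenly. Vamp2 exceeded Vamp1, the vesicle SNARE better known from spinal cord and brainstem, in 53 of 54 cells, and Vamp1 was read in 13 cells. Slc17a7 exceeded Slc17a6, the gene of the VGLUT2 transporter of thalamic and other subcortical neurons, in 52 cells, and the reverse held in 0. Syn1 exceeded Syn3 in 53 cells and Unc13a exceeded Unc13b in 38, with the reverse in 1 and 5 cells. Other pairs were close: Rims1 was above Rims2 in 26 cells and below in 19, Sv2b above Sv2a in 29 and below in 24, Erc2 above Erc1 in 27 and below in 19, and Syt4 above Syt11 in 27 and below in 27. The glutamate transporter Slc17a7 itself had as lowest, median and highest value 0, 225 and 1189 CPM in wild-type and 324, 487 and 669 CPM in knockout D1 cells, and 1.04, 398 and 2166 CPM in wild-type and 83.2, 291 and 567 CPM in knockout D2 cells. Only 2 wild-type D1 cells lacked a read of it, and neither was gene-rich.

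Among calcium sensors, Syt1, the sensor of fast synchronous release, was read in every cell, with 2.48, 418 and 1387 CPM in wild-type and 507, 894 and 1317 CPM in knockout D1 cells, and 7.28, 780.5 and 2114 CPM in wild-type and 458, 944 and 2594 CPM in knockout D2 cells. The lowest values were all in wild-type cells, and 9 of the 15 wild-type D1 cells lay below each of the knockout D1 cells. Of these 9, cells 1, 4 and 15 (84.3, 418 and 432 CPM) were gene-rich and the others were not, whereas each knockout D1 cell was gene-rich. Syt4 and Syt11, members of the family whose products do not bind calcium in the usual way, had mean levels per kilobase of 109.8 and 107, beside 95.8 for Syt1. Syt5, a calcium-binding member, stood at 61.4, Doc2a, a high-affinity sensor linked to spontaneous and asynchronous release, at 54.4, and Syt7, a slow high-affinity sensor, at 21.2. The complexins differed widely: Cplx1 stood at 93.3 and Cplx2, its close paralog, at 14.8, and Cplx3 had reads in 2 of 54 cells, both wild-type D1. By group Cplx1 stood at 26.6 and 29.1 in D1 cells without and with the knockout, and at 135 and 136 in D2 cells. It was above Cplx2 in 7 of 7 knockout D2 cells and in 2 of 6 knockout D1 cells.

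Among vesicle proteins Syn1 stood at 113 mean CPM per kilobase, Slc17a7 at 81.5, Syp at 78.4, Syn2 at 55.5, Sv2b at 47.4 and Sv2a at 29.2, with Sncb below them. Of the genes that recycle SNAREs, Napa, the gene of alpha-SNAP, stood at 107, Nsf at 60.4 and Napb, the gene of beta-SNAP, at 34.4. Napa exceeded Napb in 38 of 54 cells and was below it in 12.

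Active zone genes had lower levels per kilobase, from 3.71 for Unc13b and 4.42 for Erc1 to 14.5 for Rims2 and 15.5 for Rims1. The priming factor Unc13a stood at 11.8, Ppfia2 at 11.7 and Erc2 at 9.89. The long scaffolds Pclo and Bsn, which organise the vesicle cluster, stood at 12.8 and 8.23. Among endocytic genes Dnm1, the GTPase that cuts vesicles from the membrane, stood at 65.1, Synj1, a lipid phosphatase that helps shed the clathrin coat, at 29.9, and Amph, an adaptor that binds dynamin, at 20.9.

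Together the 37 genes took 1.05% (wild type) and 1.22% (knockout) of the counts of the median D1 cell, and 1.21% and 1.09% of the median D2 cell. The range over cells was 0.0633 to 2.05%, and the groups overlapped. The lowest share was that of wild-type D1 cell 9, which also had the highest astrocyte sum and a pyramidal sum of 200.3 CPM, against a wild-type D1 median of 1641. Wild-type D1 cell 6 had a still lower pyramidal sum, 127.6 CPM, with the highest microglia sum and 44.8% mitochondrial reads. The number of release genes with a read followed the number of all genes with a read, with a Spearman correlation of 0.87 over the 54 cells, which share libraries and depth on both axes. In the 34 gene-rich cells 18 of the 37 genes were read in every cell, and 4 (Vamp1, Cplx3, Syn3 and Slc17a6) were read in fewer than 50% of them. In the 20 remaining cells Snap25, Syt1 and Syn1 were still read in 20, whereas Doc2a was read in 3, Rims2 in 4, Amph in 5 and Unc13b in 1. A gene without a read in a cell is therefore below detection there and need not be absent.

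**Figure D2:**
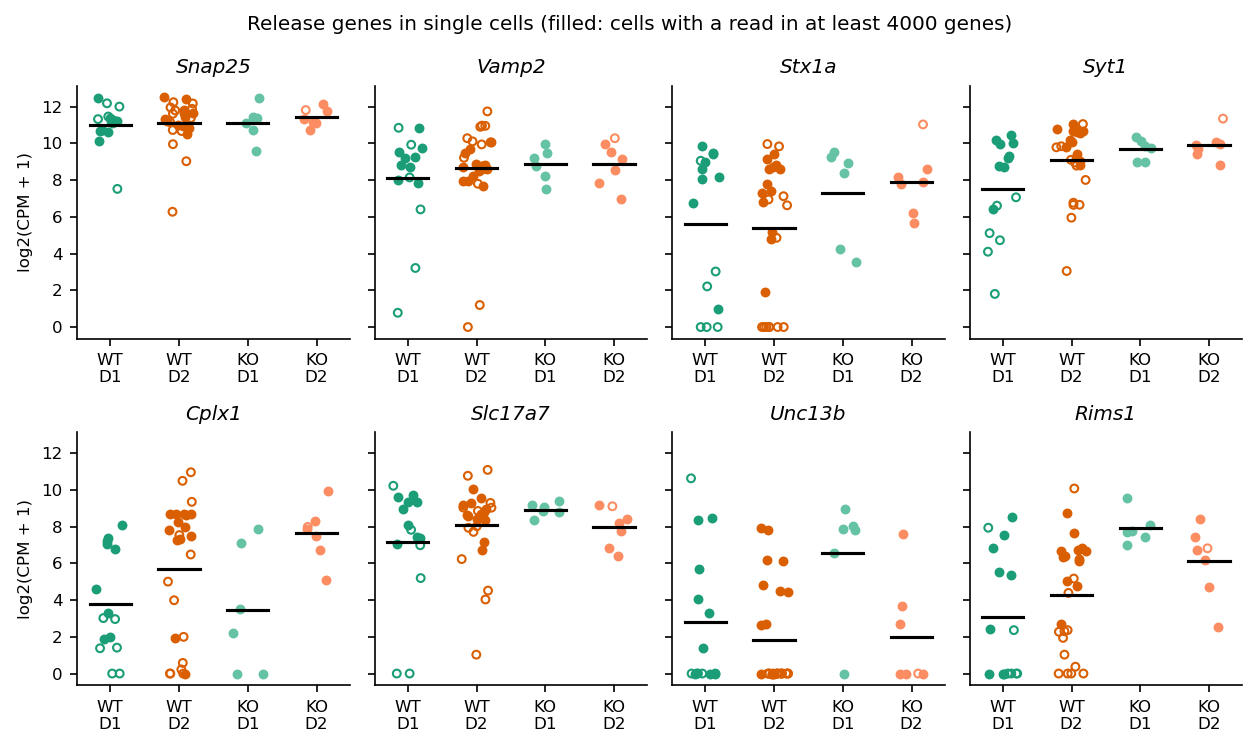
log2(CPM + 1) of 8 release genes in each cell of the 4 groups (WT, wild-type; KO, knockout). Filled points are gene-rich cells, open points the others and bars the group means; Snap25 lies at like levels in the 4 groups, while Cplx1 is low in both D1 groups and Unc13b is high in knockout D1 cells.

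The first comparison asks how D1 and D2 neurons of the wild type differ. Of the 35 release genes measured, 10 had a difference above 0 (D1 higher) and 25 below, with a median of -0.43 beside -0.14 over the 11059 genes measured. Cplx1 and Syt5 were called lower in D1 cells and Napb higher. Of all measured genes, 10.1% were called lower and 6.53% higher, so 2 and 1 of 35 are shares below that background.

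Cplx1 had the highest mean per length of the 3 complexins over the 54 cells. It was at 0, 7.09 and 268 CPM (lowest, median, highest) in wild-type D1 cells and at 0, 170.4 and 1981 CPM in wild-type D2 cells. The ranges overlapped, but 14 of 15 D1 cells lay below the D2 median and 9 of 26 D2 cells lay above the highest D1 cell. The means were 58.3 ± 84.3 (SD, n = 15 cells) and 296 ± 459.6 CPM (SD, n = 26 cells), a difference of -1.89 with a log2 ratio of means of -2.34. In gene-rich cells the difference was -1.68, and with each cell left out in turn it ran from -2.20 to -1.62. By age it was -1.15 at 29 days, -2.79 at 30 days and -3.16 at 34 days, but 2.42 at 31 days, where 3 D1 and 3 D2 cells were compared. Cplx2 had a difference of -0.43 and a log2 ratio of means of -0.08.

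Syt5 was at 0, 0.656 and 570.2 CPM in wild-type D1 and at 0, 71.1 and 945 CPM in wild-type D2 cells, with reads in 8 of 15 and 17 of 26 cells. The difference was -1.92 and the log2 ratio of means -1.02, at the edge of the 2-fold limit. The age groups went both ways for Syt5, with -4.91 at 29 days and 1.76 at 34 days. Napb, an adaptor of NSF, was at 0, 115 and 1906 CPM in D1 and 0, 69.9 and 982 CPM in D2 cells. Its difference of 1.09 was 0.19 in gene-rich cells, where it was not called. For Syt5 2 D2 cells lay above all D1 cells and for Napb 2 D1 cells above all D2 cells, and the other cells overlapped. The call for Napb was lost without the cells of 28 days (0.62), 30 days (0.62) or 31 days (0.89), and that for Syt5 without those of 28 days (-1.57), 30 days (-2.06) or 33 days (-1.59). Without wild-type D1 cell 9, 2 genes were called higher (7.86% of all genes) and 1, Cplx1, lower (8.6%), with Syt5 at -1.74 and not called.

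For the release genes as a group the ages differed in sign. Their median D1 minus D2 difference was -1.45 at 29 days, -0.04 at 30 days, 2.25 at 31 days and -1.02 at 34 days, beside -0.86, 0.00, 1.35 and 0.00 over all genes. By the mean of log2(CPM + 1), Unc13a, a priming factor of the active zone, was the 1 release gene higher in D1 cells at each of the 4 ages, and 0 were lower at each; 3.75% and 3.67% of all genes were so. The mean CPM of Unc13a went the other way at 29 days (109 in D1 and 168 in D2 cells) and at 34 days (85.3 and 127). In gene-rich cells Syt5, Syt7, Vamp1, Cplx1, Syn3, Bsn, Erc1 and Ppfia2 were called lower in D1 cells (8 of 35, beside 18.3% of all genes) and Erc2 higher (1 of 35, beside 7.93%). There the median over the release genes was -0.53 and that over all genes -0.48.

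The second comparison sets Fmr1 knockout D1 cells against wild-type D1 cells. Of 35 release genes measured, 29 had a difference above 0 and 6 below, with a median of 1.78 beside 0.98 over the 10792 genes measured. Over all genes, 74.7% had a difference above 0. Of the 35, 8 genes, Syt5, Rims1, Erc1, Erc2, Doc2a, Syt7, Amph and Ppfia2, were called higher in knockout cells, beside 27.9% of all genes. Vamp1 and Sncb were called lower (2 of 35), beside 7.46% of all genes. Both shares are below the background. The median shift of all genes was 0.14 in gene-rich cells, where Syt7, Rims1, Unc13b, Bsn and Erc1 were called higher (5 of 35, beside 17.8% of all genes) and Vamp1, Sv2a, Syp and Sncb lower (4 of 35, beside 17.5%).

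Active zone genes were 4 of the 8 called higher and 9 of the 35 measured, beside 27.9% of all genes called higher. In gene-rich cells Rims1, Erc1, Unc13b and Bsn were the active zone genes called higher, beside 17.8% of all genes. Rims1, a scaffold that tethers Rab3 on vesicles and calcium channels, had 266, 219, 169, 209.7, 128 and 759.9 CPM in the 6 knockout D1 cells, against a lowest, median and highest value of 0, 4.14 and 361 in the wild type. Each knockout cell lay above the wild-type median and 12 of 15 wild-type cells lay below every knockout cell. The difference was 4.82 with a log2 ratio of means of 2.13, and 3.90 in gene-rich cells. Erc1, a member of the ELKS family that binds RIM and liprin, had 213, 188, 244, 18.9, 6.20 and 69.8 CPM in knockout D1 cells and 0, 0.319 and 215 CPM in the wild type, a difference of 3.93 and of 3.12 in gene-rich cells. Its paralog Erc2 had 249, 184, 78.0, 249.5, 489 and 15.7 CPM in knockout and 0, 2.36 and 446 CPM in wild-type cells, a difference of 3.82. It was 2.08 in gene-rich cells, where the ratio of means was under 2-fold, and without knockout D1 cell 5 it was no longer called. Ppfia2, the gene of liprin-alpha that recruits active zone material, differed by 2.64 in all and 0.87 in gene-rich cells, where it was not called. Without knockout D1 cell 3 the difference was 1.98 and the log2 ratio of means 0.65, and the call was lost.

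All 9 active zone genes had a difference above 0 in this comparison, with a median of 2.94, beside 74.7% and 0.98 over all genes. All 9 still did among gene-rich cells, with a median of 2.08, beside 53.6% and 0.14 over all genes. For Rims2 the ratio of means went the other way in gene-rich cells, at -0.05 on the log2 scale. Unc13b and Bsn were called in gene-rich cells, with differences of 3.08 and 2.73. The summed CPM of the 9 genes was 1907, 2121 and 2842 (lowest, median, highest) in knockout D1 cells, 4.63, 915 and 4134 in all wild-type D1 cells and 408, 1018 and 2233 in gene-rich ones. The 6 knockout cells thus lay within a narrow band above the wild-type median, and wild-type D1 cells reached as high.

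Among the calcium sensors, Syt5 had 149.8, 64.5, 209, 416, 111 and 258 CPM in knockout D1 cells against 0, 0.656 and 570.2 in the wild type, a difference of 4.89. Its log2 ratio of means was 1.31, and in gene-rich cells 0.58, so it was not called there, and without knockout D1 cell 4 it was not called in all cells. Syt7 had 230.1, 186, 137, 176, 340.3 and 384 CPM in knockout cells and 0, 25.9 and 326 CPM in the wild type. All 6 knockout values lay above the wild-type median, the difference was 3.32, and it was 2.61 in gene-rich cells, called in both. Doc2a had 644, 387, 92.1, 276, 329.5 and 69.0 CPM in knockout and 0, 52.6 and 409 CPM in wild-type D1 cells, a difference of 3.67 in all and 1.29 in gene-rich cells, where it was not called. Amph differed by 3.01 and by 1.24 in gene-rich cells, and its call was lost without knockout D1 cell 4 or without cell 5.

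Among vesicle proteins 4 of 8 measured genes had a difference above 0, and their median was 0.12 beside 0.98 over all genes. Sncb, the gene of beta-synuclein, had 8.51, 15.1, 1.07, 4.83, 21.2 and 18.9 CPM in knockout D1 cells and 0, 18.7 and 153 CPM in the wild type. The ranges overlapped, and the difference of -1.05 in all and -1.64 in gene-rich cells was called in both, though without knockout D1 cell 3 it was -0.61. In gene-rich cells Sv2a, a vesicle glycoprotein that binds levetiracetam, and Syp, the vesicle membrane protein synaptophysin, were also called lower, at -2.38 and -1.86. Vamp1 was read in 0 of 6 knockout D1 cells, which with an exact 95% interval allows up to 45.9% of cells. It was read in 4 of 15 wild-type D1 cells, where its counts over the group's total came to 21.9 CPM. Against a floor of 3 counts over the pooled reads of the knockout group the level there was at least 236-fold lower. Wild-type D1 cell 1 held 904 of the 1222 wild-type counts, and without it the pooled level was at least 76-fold lower. This floor covers the counting of reads only. The wild-type share of 4 of 15 cells lies within the interval of the knockout cells, so the floor sets no least difference between cells. Without wild-type D1 cell 12 the difference of -1.19 was -0.79, and the gene was read in none of the 20 cells that were not gene-rich.

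The third comparison sets knockout D2 against wild-type D2 cells. Of 36 release genes measured, 34 had a difference above 0 and 2 below, with a median of 1.41 beside 0.56 over 11222 genes. Over all genes, 68.5% had a difference above 0. Doc2a, Erc2, Stx1a, Napb, Nsf, Pclo and Slc17a6 were called higher in the knockout (7 of 36), beside 15% of all genes, and 0 of 36 were called lower, beside 6.51%. In gene-rich cells the median was -0.20, below 0, beside -0.39 over all genes. Of the 36 genes, 14 were above and 22 below 0, while 38.4% of all genes were above 0. There Slc17a6, Doc2a and Erc2 were called higher (3 of 36, beside 9.17% of all genes).

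Doc2a had 32.0, 431, 263, 297, 0, 888 and 357 CPM in the 7 knockout D2 cells and 0, 20.4 and 500.0 CPM as lowest, median and highest value in wild-type D2 cells. Of the knockout cells 6 of 7 lay above the wild-type median, and the other one, which was not gene-rich, had no read. The difference was 3.09 in all cells and 1.37 in gene-rich cells, called in both. Of the 2803 exon bases of Doc2a, 1103 are shared with Ino80e on the other strand, and as the library kit does not mark strand, reads there cannot be assigned to 1 of the 2 genes. Erc2 had 21.5, 292, 215, 257, 0, 271 and 2.89 CPM in knockout and 0, 0.688 and 943 CPM in wild-type D2 cells. The difference was 2.83 in all and 2.85 in gene-rich cells, with 6 of 7 knockout cells above the wild-type median.

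Stx1a had 234, 381, 219, 74.2, 2083, 289.6 and 49.9 CPM in knockout D2 cells and 0, 117 and 993 CPM in the wild type. The highest value belonged to knockout cell 5, and without that cell the difference of 2.53 was 2.01 and no longer called. Napb, with 374, 409.6, 234, 90.1, 1.09, 1264 and 123 CPM in knockout cells, differed by 2.37, and Nsf, the ATPase that takes SNARE complexes apart, with 935, 1099, 718, 340.4, 2207, 1792 and 40.5 CPM, by 1.90. In the wild type Napb had 0, 69.9 and 982 CPM and Nsf 0, 367 and 1225 CPM. The call for Napb was lost without knockout cell 6 and that for Nsf without cell 5 or 6. In gene-rich cells the differences of Stx1a, Napb and Nsf were 0.13, 1.16 and 0.52, and none was called.

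Pclo differed by 1.58 in all cells and by -0.61 in gene-rich cells, with the opposite sign, and its call in all cells was lost without knockout D2 cell 4 or 5. Slc17a6 was read in 2 of 7 knockout D2 cells, cells 3 and 7, at 63.8 and 76.3 CPM, and in 4 of 26 wild-type D2 cells, at up to 28.4 CPM. Its difference of 1.22 was 0.47 without cell 7 and 0.51 without cell 3. The same cell 7 had the highest summed interneuron markers of the knockout D2 cells, 319 CPM, whereas cell 3 had 2.17 CPM; their part in the result was not tested. Syn1, the synapsin that ties vesicles to actin, had a difference of -1.06 and a log2 ratio of means of -0.86, under the 2-fold limit. In gene-rich cells it was called lower at -2.28, as were Syt7 at -1.17, Sv2b at -2.59 and Syp at -1.32 (4 of 36, beside 21.6% of all genes). The summed CPM of the 9 vesicle protein genes was 884, 1608 and 2343 (lowest, median, highest) in gene-rich knockout D2 cells and 1341, 2773 and 4355 in gene-rich wild-type D2 cells, and 0 of 6 knockout cells lay above the wild-type median.

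**Figure D3:**
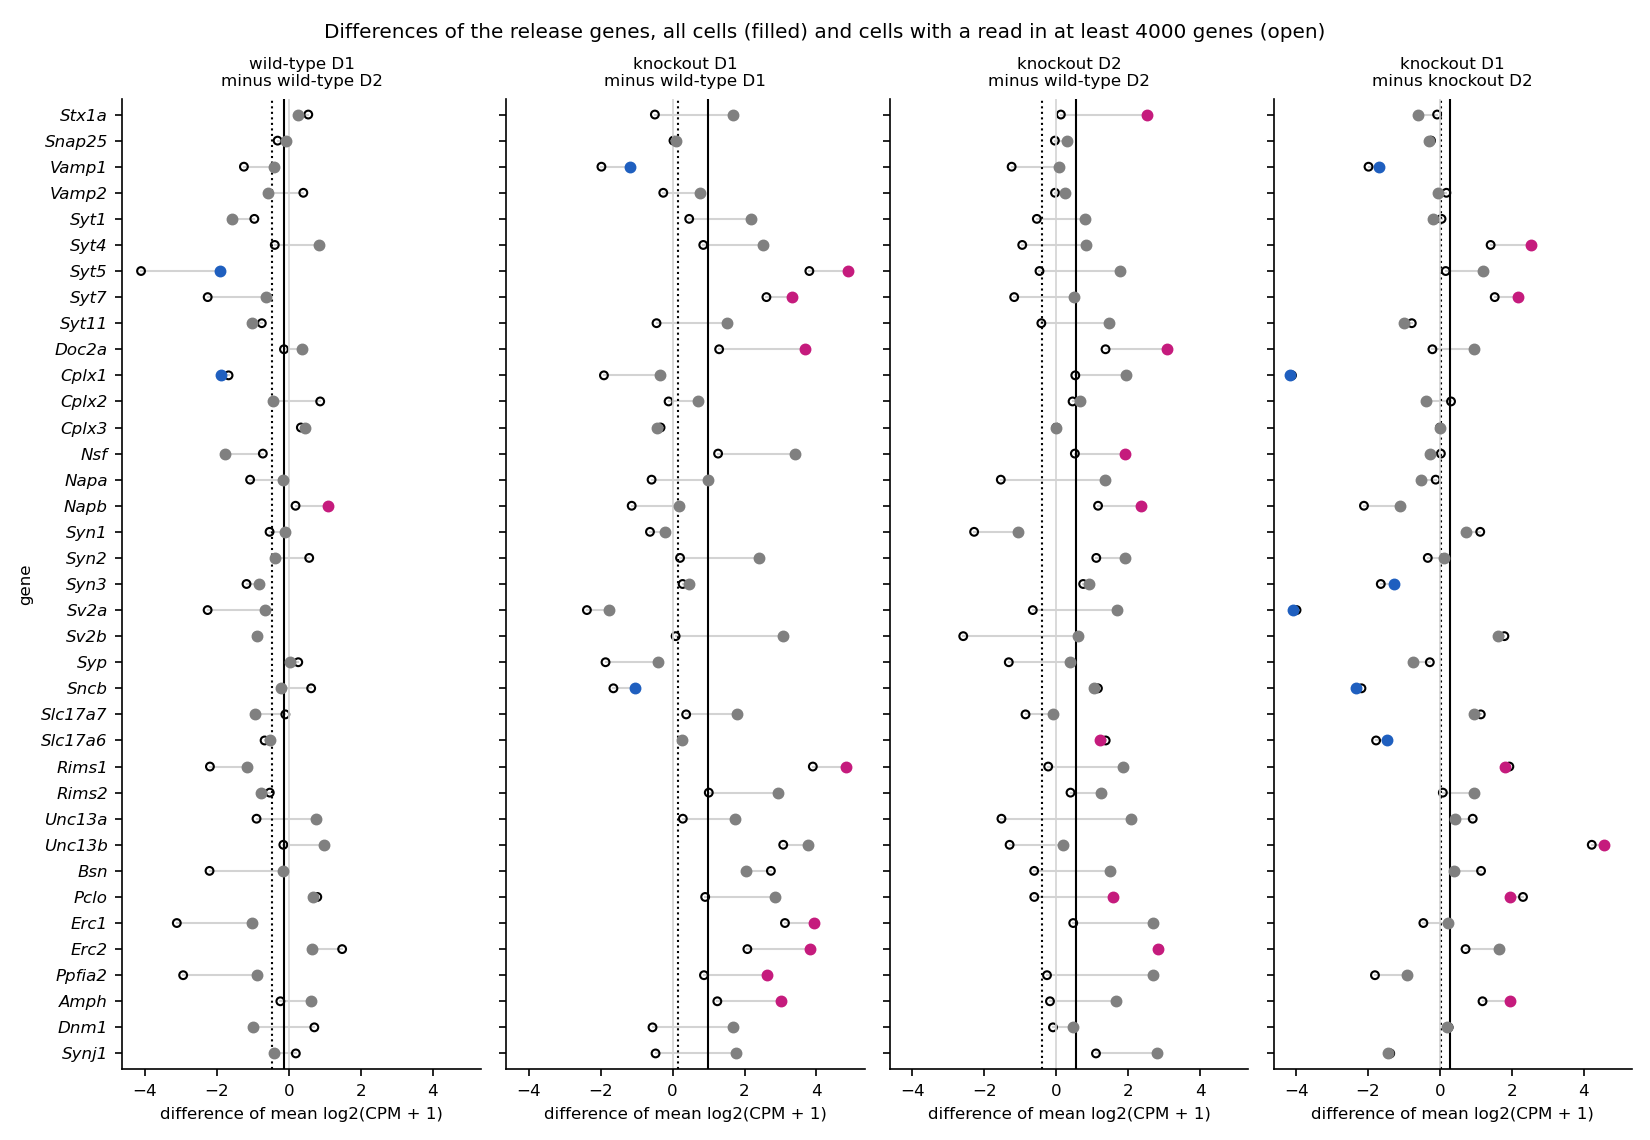
Difference of mean log2(CPM + 1) of each release gene in the 4 comparisons, first group minus second. Filled points are all cells (magenta called higher, blue called lower, grey not called, genes below the measured limit included), open points gene-rich cells; solid and dotted vertical lines are the medians of all genes in all and in gene-rich cells, and in the panels of knockout against wild type most open points lie left of the filled ones.

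The fourth comparison sets D1 against D2 cells within the knockout, where 12 of 13 cells were gene-rich. Of 36 release genes measured, 18 had a difference above 0 and 18 below, with a median of 0.03 beside 0.29 over 10990 genes. Over all genes, 57.7% had a difference above 0. Unc13b, Syt4, Syt7, Pclo, Amph and Rims1 were called higher in D1 cells (6 of 36), beside 23.3% of all genes. Cplx1, Sv2a, Sncb, Vamp1, Slc17a6 and Syn3 were called lower (6 of 36), beside 15.7%. All 12 calls were also made in gene-rich cells, where Bsn was called higher too (7 of 36 higher, beside 20.5% of all genes, and 6 lower, beside 17.7%).

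Unc13b, a Munc13 priming factor below Unc13a per length over the 54 cells, had 499, 94.3, 0, 226, 236 and 264 CPM in knockout D1 cells. In knockout D2 cells it had 11.9, 0, 0, 194, 0, 0 and 5.42 CPM. Of the 6 D1 cells 4 lay above each of the D2 cells, while D1 cell 3 had no read and D2 cell 4 reached 194 CPM. The means were 219.9 ± 170.0 (SD, n = 6 cells) and 30.2 ± 72.5 CPM (SD, n = 7 cells), a difference of 4.55 that ran from 4.07 to 5.86 with each cell left out. In the wild type the D1 minus D2 difference was 0.98, and -0.15 in gene-rich cells.

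Syt4, which regulates dense-core vesicles and retrograde signals, had 386, 486, 1571, 1235, 358 and 409 CPM in knockout D1 and 76.8, 404, 789, 343, 0, 156 and 113 CPM in knockout D2 cells. Each D1 cell lay above the D2 median, with a difference of 2.53, or 1.41 without D2 cell 5, which had no read. Syt7 differed by 2.18, with 230.1, 186, 137, 176, 340.3 and 384 CPM in D1 and 227, 12.7, 151, 55.2, 2.29, 94.1 and 96.2 CPM in D2 cells, and each D1 cell lay above the D2 median. Pclo, with 694, 839, 71.8, 680.2, 1306 and 333 CPM in D1 and 313, 3.20, 211, 653, 556, 407 and 10.5 CPM in D2 cells, differed by 1.95. Its call was lost without D1 cell 5, D2 cell 2 or D2 cell 7. Amph differed by 1.95 and Rims1 by 1.81; the call for Rims1 was lost without D1 cell 6.

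Cplx1 had 0, 3.64, 232, 0, 10.6 and 135 CPM in knockout D1 cells and 232, 104, 178, 33.5, 251, 968 and 313 CPM in knockout D2 cells. Of the D1 cells 4 of 6 lay below each D2 cell, and D1 cells 3 and 6 lay within the D2 range. The difference was -4.17 with a log2 ratio of means of -2.22, and it ran from -5.06 to -3.48 with each cell left out. Sv2a had 9.19, 3.12, 352, 0.193, 0.151 CPM in D1 cells 1 to 5 and 176, 148, 176, 169, 224, 426 and 18.1 CPM in D2 cells. D1 cell 3 lay within the D2 range, D1 cell 6 just above the lowest D2 cell and the other 4 below each D2 cell. The difference was -4.09, and the log2 ratio of means -1.58. Sncb had 8.51, 15.1, 1.07, 4.83, 21.2 and 18.9 CPM in D1 and 39.0, 57.4, 53.7, 17.9, 86.7, 77.5 and 36.5 CPM in D2 cells, a difference of -2.33. Every D1 cell lay below the D2 median, and 4 of 6 below each D2 cell. Vamp1, Slc17a6 and Syn3 differed by -1.70, -1.48 and -1.29, each through 2 or 3 D2 cells with reads. Vamp1 lost its call without D2 cell 3 or 4, Slc17a6 without cell 3 or 7 and Syn3 without cell 6.

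Cplx1 and Unc13b had the largest differences between knockout D1 and D2 cells in either direction, and the 250 bases before their transcription starts are therefore shown, from RefSeq on GRCm38.p6. Capitals mark the GC box GGGCGG, the letters bound by Sp family factors, on either strand; the Cplx1 sequence is chr5:108550028-108550277 on the minus strand and the Unc13b sequence chr4:43058703-43058952 on the plus strand.
Cplx1: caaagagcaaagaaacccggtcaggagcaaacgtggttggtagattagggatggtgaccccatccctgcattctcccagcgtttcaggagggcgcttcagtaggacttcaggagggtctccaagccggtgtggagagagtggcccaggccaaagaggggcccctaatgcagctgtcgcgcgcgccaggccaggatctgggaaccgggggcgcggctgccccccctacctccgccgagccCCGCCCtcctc
Unc13b: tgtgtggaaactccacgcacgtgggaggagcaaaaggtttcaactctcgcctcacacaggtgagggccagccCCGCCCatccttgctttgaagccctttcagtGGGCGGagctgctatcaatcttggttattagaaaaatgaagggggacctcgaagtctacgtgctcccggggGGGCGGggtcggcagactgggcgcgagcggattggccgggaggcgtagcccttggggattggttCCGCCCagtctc
Cplx1 holds 1 GC box, 11 bases before the start, and Unc13b holds 4. Promoter sequences of this length were given for 29 of the 37 genes (36 promoters). A GC box was found in 19 of these 36, beside 32.7% of 32851 promoters of the annotation, and the median number of CG dinucleotides was 11.5 beside 6. The letters TATAAA of the TATA box, searched on either strand, were found in 2 of the 36, beside 12.4% of all. Both were promoters of Sv2b, and in both the letters lay on the strand opposite to the direction of transcription.

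The cyclic AMP response element TGACGTCA was found in 1 of the 36 promoters, that of Syn1, beside 1.55% of all promoters. It lies 159 bases before the start in chrX:20920919-20921168 on the minus strand and is shown in capitals.
Syn1: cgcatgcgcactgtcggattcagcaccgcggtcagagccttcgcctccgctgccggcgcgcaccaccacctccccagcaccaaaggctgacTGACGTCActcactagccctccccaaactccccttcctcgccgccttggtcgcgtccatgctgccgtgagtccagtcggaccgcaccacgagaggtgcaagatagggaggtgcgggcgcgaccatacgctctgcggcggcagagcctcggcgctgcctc
These matches describe letters in the window and show neither binding nor regulation.

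Seen across the comparisons of all cells, 3 release genes were called in the same direction in both of a pair of comparisons that share no cells. Between D1 and D2 cells, Cplx1 was called lower in D1 both in the wild type and in the knockout. It was 1 of the 35 release genes measured in both, beside 1.58% of all genes, whose 161 shared calls are 15.1% of the wild-type list and 10.1% of the knockout list. No release gene was called higher in D1 cells in both genotypes, beside 1.56% of all genes. Between genotypes, Doc2a and Erc2 were called higher in the knockout in D1 and in D2 cells, 2 of 35 beside 4.37% of all genes. Among gene-rich cells both were called in knockout D2 but neither in knockout D1 cells. No release gene was called lower in both, beside 0.745%. Whether the knockout differences of D1 and D2 cells differ was not tested.

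By role, the active zone sum of knockout D1 cells, with a median of 2121 CPM, lay above the medians of wild-type D1 cells (915), of D2 cells with the knockout (1393) and of those without (1063). Each of the 6 cells was above the medians of knockout D2 and wild-type D1 cells. The vesicle protein sum of knockout D1 cells, 1495, 1816 and 2335 CPM (lowest, median, highest), lay below the wild-type D1 median of 2397 in each of the 6 cells. The SNARE sum had medians of 3461 (wild type) and 3084 CPM (knockout) in D1 cells and of 3595 and 3202 CPM in D2 cells. The complexin sum had medians of 52.1 and 108 CPM in D1 and of 252 and 288 CPM in D2 cells, lower in both D1 groups.

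**Figure D4:**
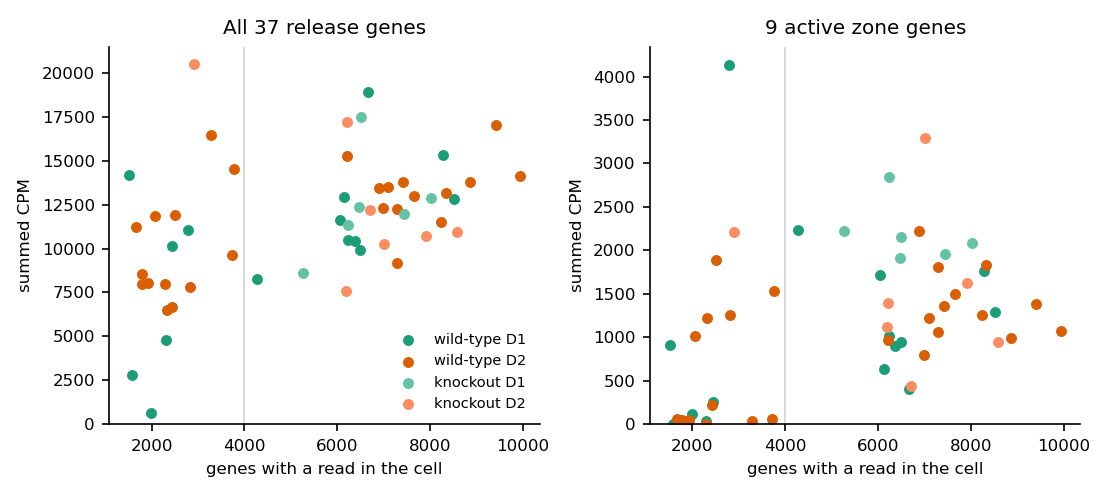
Summed CPM of all 37 release genes (left) and of the 9 active zone genes (right) against the number of genes with a read, 1 point per cell, coloured by group. The grey line marks 4000 genes; to its left many cells have an active zone sum near 0 while the sum of all 37 genes is less reduced, and the 6 knockout D1 cells lie between 1907 and 2842 CPM at right.

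Most pairs of release genes showed little correlation from cell to cell. Over 33 genes in the 34 gene-rich cells, the median Spearman correlation of 528 pairs was 0.01, with a range from -0.50 to 0.55, and 5 pairs were above 0.5. These were Stx1a with Napb, Snap25 with Napb, Erc1 with Ppfia2, Syn1 with Napa and Syn2 with Nsf. The values describe cells of 4 groups that differ in depth. Besides Doc2a, exon bases shared with a gene on the other strand were largest for Ppfia2 (2670 of 10903), Erc1 (1919 of 16271) and Syn3 (1733 of 12282, with Timp3), where reads of the 2 genes cannot be told apart.

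Of 64 other genes of the pathway, 5 of 56 measured were called higher and 4 lower in D1 than in D2 cells of the wild type. Of all genes, 6.53% and 10.1% were so called. The 2 largest in each direction were Rims3, a short RIM protein (2.72, with 79.9 ± 195 CPM in D1 and 1.26 ± 3.64 in D2 cells), and Sh3gl2, the gene of endophilin A1 (1.80), and Cadps2 (-1.68) and Cadps (-1.58), which prime dense-core vesicles. In knockout against wild-type D1 cells 19 of 55 were called higher (beside 27.9% of all genes), led by Sh3gl1 (4.76) and Stxbp5 (4.69). There 3 were called lower (beside 7.46%), led by Rims3 (-3.11) and Stx4a (-1.58). In knockout against wild-type D2 cells 8 of 58 were called higher (beside 15% of all genes), led by Bin1 (3.49) and Napg (3.36). There 2 were called lower (beside 6.51%), Cask (-1.38) and Syt17 (-1.08). Between knockout D1 and D2 cells 16 of 54 were called higher in D1 (beside 23.3% of all genes), led by Cask (3.49) and Rab27b (3.43). There 4 were called lower (beside 15.7%), among them Stx4a (-1.77). Among gene-rich wild-type cells 3 of 56 were higher and 8 lower in D1, beside 7.93% and 18.3% of all genes. For knockout against wild type they were 8 and 8 of 56 in gene-rich D1 cells, beside 17.8% and 17.5%. For gene-rich D2 cells they were 4 and 16 of 57, beside 9.17% and 21.6%. Between gene-rich knockout D1 and D2 cells they were 17 and 5 of 54, beside 20.5% and 17.7%.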

How the data were processed

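Libraries were made from the cytosol of single neurons as total RNA; per the labels' protocols the kit was Nextera XT, which does not mark strand. The submitters' processing notes name Trimmomatic, STAR and featureCounts and the build GRCm38; the sources used here give no versions, roles or strand settings. The authors deposited whole-number counts per gene by symbol (22800) and by Ensembl identifier (22880). They also deposited a normalized signal table, which holds the counts times 1 factor per cell and was used as an alternative. Each table also held 2 columns that match no sample label, which were not used.

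CPM used the total over genes. No test was made, and groups were compared by the difference of mean log2(CPM + 1) and the ratio of mean CPM. The procedure was also run on simulated counts with the same relative spread for all genes and cells. That simulation did not model groups that differ in the number of genes read, so it cannot vouch for calls under that difference. Shares of cells have exact Clopper-Pearson intervals at 95%. Depths of 260943 to 10673072 counts, without molecular identifiers, set the precision, and intervals and floors cover counting error only. No comparison used the 1 knockout D1 cell labelled as failing quality control. Exon lengths and overlaps came from GENCODE on GRCm38. All 37 symbols are named, with values by cell for at most the 4 largest called differences per direction; of other pathway genes the 2 largest per direction are named, except 1 that is not reported here. A few further called genes were given cell values after these were seen. The 37 genes were chosen by symbol, without use of measured values. They and the other lists were chosen with earlier results of these data known. Alternatives were TMM scaling (edgeR 4.0.16, R 4.3.3), the authors' normalized values, the Ensembl table, a pseudocount of 10, stricter filters, another call rule, gene-rich cells, matched ages and leaving out cells or ages. Computations used Python 3.11.15, numpy 2.4.6, pandas 2.3.3 and scipy 1.17.1.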

Additional observations from a re-analysis of the deposited data

Results flagged for a closer look

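In the groups of 6 and 7 knockout cells, 78 sets of values were examined for a cell far from the others, and 14 were marked. The rule marks about 1 in 20 sets where values follow a normal curve. Values with many zeros do not follow one, and sets without spread cannot be marked. The 14 marks are therefore not compared with chance. Most are a cell with few or no reads of a gene that the other cells of its group express. Knockout D1 cell 3 had 0 CPM of Unc13b (others 94.3 to 499), 0 of Amph (89.2 to 553), 1.5 of Synj1 (92.5 to 511) and 16.5 of Syn2 (281 to 825). Knockout D1 cell 5 had 0.302 CPM of Syp (144 to 444) and 1.81 of Napa (183 to 646). Knockout D2 cell 5, the 1 knockout cell that was not gene-rich, had 0 CPM of Syt4 (76.8 to 789), 0 of Syt5 (54.6 to 344) and 1.09 of Napb (90.1 to 1264). Knockout D2 cell 4 had 3.39 CPM of Napa (105 to 1167), cell 6 had 0.13 of Sv2b (39.0 to 523) and cell 7 had 18.1 of Sv2a (148 to 426). High values were 22.6 CPM of Syn3 in knockout D1 cell 2 (0 to 0.428) and 2.1 of Slc17a6 in knockout D1 cell 6 (others 0). In knockout D1, the cell that did not pass quality control, with a read in 995 genes and in 13 of the 37 release genes, had 3080 CPM of Syt1, above the range of 2.48 to 1387 in wild-type D1 cells.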

How the results depend on the processing

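No paired analysis was possible because the labels give the cells no number, animal or litter shared between groups. Counts are of release genes called. Where no share of all genes stands beside a count, it cannot be told whether the release genes moved apart from all genes. In wild-type D1 against D2 cells, 1 higher and 2 lower became 0 and 4 with TMM scaling, 1 and 7 with the authors' normalized values, 0 higher with a pseudocount of 10, 8 lower by the log2 difference alone (13.2% of all genes), 8 lower in gene-rich cells, and 0 and 4 in cells of the 4 shared ages. Leaving out 1 age gave 0 to 4 higher, 1 to 11 lower and a median of -0.85 to -0.08; the extremes were 4 higher and 4 lower without the cells of 29 days (11.7% and 9.27% of all genes) and 11 lower without those of 31 days (18.2%), and 30 and 35 days gave 6 and 7 lower. For knockout against wild-type D1 cells, 8 higher and 2 lower became 23 higher by the log2 difference alone (49.6% of all genes), 0 lower with a pseudocount of 10, 1 lower with the stricter filter or with the cell that failed quality control, and 5 higher, 4 lower and a median of 0.28 in gene-rich cells. Leaving out 1 knockout cell, or wild-type D1 cell 9 as an alternative chosen after seeing the data, gave 8 to 9 higher, 1 to 3 lower and medians of 1.64 to 2.28. For knockout against wild-type D2 cells, 7 higher and 0 lower became 1 lower with the authors' values, 22 and 1 by the log2 difference alone (36.4% and 6.91% of all genes), 3 and 4 in gene-rich cells with a median of -0.20 in place of 1.41, and 15 and 2 (35.2% and 9.81%) with a median of 2.07 against wild-type cells of 31 and 32 days. A pseudocount of 10 gave a median of 0.75, Pclo was -0.61 in gene-rich cells, and leaving out 1 cell gave 6 to 9 higher, 0 to 1 lower and 1.27 to 1.46. Between knockout D1 and D2 cells, 6 lower became 3 with a pseudocount of 10 and the median was -0.57 with the failed cell; leaving out 1 cell gave 5 to 7 higher, 4 to 8 lower and -0.32 to 0.36. The cause of these moves was not tested. TMM scaling and the authors' values moved the median over all genes, from 0.98 to 0.71 between knockout and wild-type D1 cells with the latter; between knockout D1 and D2 cells the release genes' median of 0.03 was -0.18 with TMM and -0.36 with the authors' values. Cplx1, Unc13b, Sncb, Syt4, Syt7 and Amph between knockout D1 and D2 cells, Rims1 and Erc1 in knockout D1, Doc2a in knockout D2 and Cplx1 in wild-type cells kept their calls under the 8 alternatives other than leaving cells out.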
